A study of Mus musculus with 15 samples.

Results

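Ribosome biogenesis and RNA polymerase I were examined in mouse CD8+ T cells through a module of 48 genes, chosen by symbol from a list of RNA polymerase I subunits and factors, nucleolar proteins, small nucleolar ribonucleoproteins (snoRNP) and assembly factors of both ribosomal subunits. All 48 were found in both tables used here, among 11262 mRNA of naïve and 24 h activated cells and 11211 mRNA of cytotoxic T lymphocytes (CTL). Ribosomes are built in the nucleolus, where RNA polymerase I transcribes a long precursor rRNA. The precursor is modified by snoRNP, cut and folded by assembly factors, and joined with ribosomal proteins into a small and a large subunit. A naïve T cell is small and quiescent, and after antigen contact it grows and divides, which needs new ribosomes.

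The study asked what the phosphoinositide 3-kinase p110δ controls in CD8+ T cells, and a second table compares CTL with and without IL-2. The cells came from LCMV-P14 TCR transgenic mice, whose T cells recognise the viral peptide gp33–41. RNA was sequenced from stranded mRNA libraries in 5 groups of 3 biological replicates. Values are FPKM, TMM-normalised read counts scaled to library size and exon length.

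In the first table the lymph node cells of 3 female mice, 9 to 13 weeks old, were pooled for each replicate and divided between 3 groups. Naïve cells were sorted ex vivo as CD8+ cells, with CD44 low among the criteria. TCR activated cells spent 24 h in culture with the peptide (100 ng/ml gp33–41) and the cytokines IL-2 (20 ng/ml) and IL-12 (2 ng/ml), after which live CD8+ cells were sorted. The cells called PI3Kdi had the same culture and sort with 10 µM of the p110δ inhibitor IC87114, whose vehicle is DMSO. In the second table CTL of P14 mice were activated for 48 h, grown for 4 days with 20 ng/ml IL-2, washed on day 6 and kept for 24 h with 20 ng/ml IL-2 or without IL-2. Peptide, IL-2 and IL-12 were present in both activated groups, so naïve and activated cells differ in all of them, and the inhibitor was used at a single dose and time. The 2 tables were normalized separately, and no test was made across them. The read number per library was not taken from a count file: the spacing of low FPKM values was clear in 7 of 15 libraries, at 11.9 to 14.6 M reads, and unclear in 8, so no limit of detection is given.

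All 8 T cell mRNA of a CD8+ list (Cd3d, Cd3e, Cd3g, Cd247, Cd8a, Cd8b1, Lck and Thy1) were in both tables. Cd8a, a chain of the CD8 co-receptor, was at 556, 546 and 529 FPKM in the naïve libraries, 167, 187 and 189 FPKM in the TCR activated and 216, 228 and 202 FPKM in the PI3Kdi libraries. In CTL it was at 117, 109.6 and 107 FPKM with IL-2 and 118, 115 and 134 FPKM without. The summed FPKM of the 8 mRNA was 4749, 5159 and 5183 in naïve, 1505, 1380 and 1310 in TCR activated and 1427, 1515 and 1350 in PI3Kdi cells. It was 2417, 2762 and 2644 in CTL with IL-2 and 3317, 3154 and 3330 in CTL without IL-2, with Thy1 the most abundant of the list in both. In naïve cells Cd8b1 was the most abundant and in both activated groups Thy1. Without IL-2, 3 of the 8 were called higher and 0 lower, 1 at an unadjusted p under 0.05. Over all mRNA 14.3% were called higher and 13.9% lower, and 37.7% were lower at the unadjusted p. All 8 were called lower in TCR activated and in PI3Kdi cells than in naïve cells, beside 23.7% and 21.3% of all mRNA. For PI3Kdi against TCR activation 0 of the 8 were called in limma, with 4 higher and 1 lower at an unadjusted p under 0.05. In that comparison 3.04% of all mRNA were called higher and 2.1% lower, and 16.1% and 15.4% passed the unadjusted p.

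The module was expressed in all groups. Its summed FPKM was 2232, 2331 and 2259 in the naïve libraries, 9256, 10195 and 10673 in the TCR activated libraries and 8403, 8422 and 8772 in the PI3Kdi libraries. Every PI3Kdi library thus lay below every TCR activated library and above every naïve library. The members took 0.498 ± 0.011% (SD, n = 3) of all FPKM before activation, 2.1 ± 0.107% on TCR activation and 1.89 ± 0.0306% with PI3Kdi. In CTL the sum was 3812, 4087 and 4383 FPKM with IL-2 and 1664, 1637 and 1588 FPKM without IL-2. The CTL groups did not overlap, and the share of all FPKM was 0.831 ± 0.0383% with IL-2 and 0.361 ± 0.00981% without. Npm1, which encodes the nucleolar chaperone nucleophosmin, gave the largest part of the sum in each of the 15 libraries, from 18.5% to 38.5%, and Ncl, which encodes nucleolin, the second largest. FPKM are shares of a library, and in bulk samples fewer cells with an mRNA and less of it per cell cannot be told apart.

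**Figure D1:**
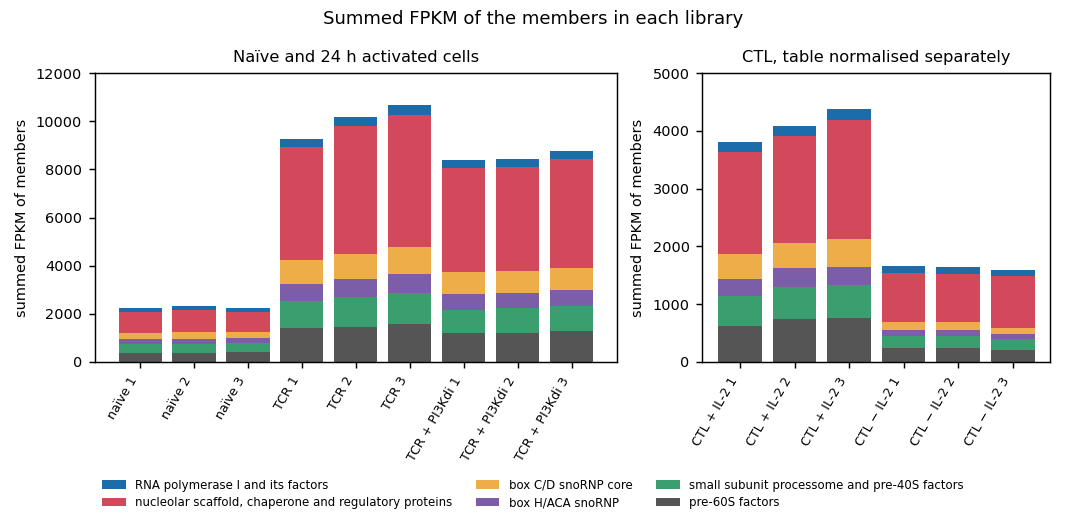
Summed FPKM of the 48 members in each library (y axis, FPKM; x axis, group and replicate number), stacked by role, for the first table on the left and the CTL table on the right. The 3 PI3Kdi libraries sit between 8403 and 8772 FPKM, below the TCR activated libraries at 9256 to 10673 FPKM, and the CTL without IL-2 at 1588 to 1664 FPKM lie below the CTL with IL-2 at 3812 to 4383 FPKM.

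TCR activation raised the module. An mRNA was called at an adjusted p under 0.05 in limma with a fold change above 2 or below 0.5, on the scale of log2(FPKM + 0.1). By this rule 46 of 48 members were called higher on TCR activation, beside 25.0% of all mRNA tested, and 0 were called lower, beside 23.7% of all mRNA and 0 at an unadjusted p under 0.05. The median log2 fold change (difference of log2 group means) was 1.87 over the members and 0.01 over all mRNA. The range ran from 0.45 for Ubtf to 3.04 for Ncl, and Ubtf and Ddx10 passed the adjusted p without reaching 2-fold. By role, the medians were 1.41 for the 6 genes of RNA polymerase I and its factors, 2.36 for 7 nucleolar proteins, 2.15 for 3 box C/D and 2.05 for 4 box H/ACA snoRNP proteins, 1.58 for 14 small subunit factors and 1.92 for 14 large subunit factors.

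The module was also higher than in naïve cells when the inhibitor was present. In PI3Kdi against naïve cells, 42 of 48 members were called higher, beside 23.6% of all mRNA, and 0 were called lower, beside 21.3% of all mRNA and 0 at an unadjusted p under 0.05. All 48 passed the adjusted p with a higher level, beside 4512 of 11262 mRNA. Their median log2 fold change was 1.59, beside 0.00 over all mRNA. This comparison, TCR activation against naïve cells and PI3Kdi against TCR activation share libraries, so their values stand side by side and their relation was not tested. The medians of PI3Kdi against naïve cells by role, in the same order, were 1.12, 2.18, 1.85, 1.89, 1.44 and 1.71.

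Compared with TCR activation alone, PI3Kdi cells had slightly lower levels of many members, and none reached 2-fold. In limma 0 of 48 members were called lower at 2-fold, beside 2.1% of all mRNA, and 0 were called higher, beside 3.04% of all mRNA. At an unadjusted p under 0.05, 22 members were lower, beside 15.4% of all mRNA, and 0 higher, beside 16.1% of all mRNA. By the adjusted p alone 14 members fell, beside 8.19% of all mRNA, and 0 rose, beside 9.35% of all mRNA. The median log2 fold change was -0.19 over the members, a fold of 0.877, and -0.01 over all mRNA. The fitted value was negative for 44 of 48 members, beside 50.9% of all mRNA. In 24 members every PI3Kdi library lay below every TCR activated library, which held for 18.6% of all mRNA. The 14 members past the adjusted p were Rrn3 (RNA polymerase I), Nolc1 (nucleolar), Nop56 (box C/D), Nhp2 (box H/ACA), Nop14, Wdr43, Rrp9, Bysl and Nob1 (small subunit) and Nop2, Nop16, Noc2l, Nle1 and Ebna1bp2 (large subunit).

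This count moved with the libraries used. TCR replicate 1 was the lowest of the 3 TCR activated libraries for 39 of 48 members, and it held the lowest value for 40.3% of all mRNA. Without that library 24 members passed the adjusted p, 13 of them among the 14. With all libraries of replicate 1, 2 or 3 left out, 6, 1 and 2 members passed, 5, 1 and 2 of them among the 14. These fits have 2 libraries per group, and the member median was -0.26, -0.17 and -0.17 in them, beside -0.19. Without an intensity trend in the variance prior 7 passed. Between libraries of the same number, PI3Kdi was lower than TCR activation in 31 members for replicate 1, 47 for replicate 2 and 48 for replicate 3, with median log2 differences of -0.10, -0.23 and -0.26. In 31 members it was lower in all 3 pairs, which held for 27.3% of all mRNA.

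RNA polymerase I transcribes the precursor rRNA. Of its 6 genes 1, Rrn3, fell with PI3Kdi by the adjusted p, beside 8.19% of all mRNA. Rrn3 (Entrez 106298, chromosome 16 of GRCm38 from 13780699 to 13814841) encodes the initiation factor that brings the polymerase to the promoter. Its FPKM were 18.97, 19.9 and 20.5 in naïve, 45.4, 54.9 and 57.5 in TCR activated and 39.8, 37.5 and 41.03 in PI3Kdi cells. The PI3Kdi libraries were all below the TCR activated ones and above the naïve ones, with a log2 difference of -0.41 (SE 0.10, adjusted p = 0.016) against TCR activation. Polr1b (Entrez 20017, chromosome 2 of GRCm38 from 129100970 to 129128060), the second largest subunit of the catalytic core, was at 17.4, 16.1 and 15.2 FPKM in naïve, 65.6, 80.1 and 80.99 FPKM in TCR activated and 69.5, 69.00 and 72.5 FPKM in PI3Kdi cells. Its activated groups overlapped, as TCR replicate 1 was below all 3 PI3Kdi libraries and the other TCR activated libraries above them, and the log2 fold change was -0.10 (adjusted p = 0.54).

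Ubtf, which encodes the factor that binds along the rRNA genes and keeps them open, had the highest mean FPKM of the polymerase genes over the 9 libraries of the first table. It was at 60.3, 58.3 and 64.8 FPKM in naïve, 75.8, 86.2 and 89.5 FPKM in TCR activated and 82.1, 82.9 and 87.3 FPKM in PI3Kdi cells. The activated groups overlapped, at a log2 fold change of 0.01 for PI3Kdi (adjusted p = 0.96), and both lay above the naïve libraries. Polr1e encodes a polymerase subunit that acts in initiation. It was at 9.84, 10.1 and 10.6 FPKM in naïve, 20.01, 24.03 and 25.00 FPKM in TCR activated and 23.6, 23.1 and 22.2 FPKM in PI3Kdi cells. The PI3Kdi libraries lay within the range of the TCR activated ones, with a fitted difference of 0.00, which turned to -0.003 with median scaling. Ubtf and Polr1e had fitted values above 0, and both were below 0 without TCR replicate 1, at -0.06 and -0.10. Polr1a and Polr1c, the largest subunit and one shared with RNA polymerase III, had log2 fold changes of -0.13 and -0.34 that did not pass the adjusted p.

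Of the 7 nucleolar proteins, 1 fell with PI3Kdi, beside 8.19% of all mRNA, and the median log2 fold change was -0.18. Nolc1 (Entrez 70769, chromosome 19 of GRCm38 from 46075847 to 46085543) encodes a phosphoprotein that works as a chaperone of snoRNP. It was at 40.6, 40.3 and 48.8 FPKM in naïve, 321, 313 and 307 FPKM in TCR activated and 254, 252 and 248 FPKM in PI3Kdi cells. The 3 groups did not overlap, and replicates lay close together, with a log2 difference of -0.32 (SE 0.09, adjusted p = 0.026) for PI3Kdi against TCR activation. Npm1 was at 415, 492 and 418 FPKM in naïve, 2629, 2943 and 3015 FPKM in TCR activated and 2357, 2356 and 2443 FPKM in PI3Kdi cells. Each PI3Kdi library was below each TCR activated one, and the log2 fold change of -0.26 did not pass (adjusted p = 0.12). The values of Ncl, Npm3, Gnl3, Mybbp1a and Ddx21 ranged from -0.22 to -0.13 in log2, and none passed the adjusted p.

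The snoRNP guide chemical changes of rRNA, box C/D particles for 2′-O-methylation and box H/ACA particles for pseudouridine. In each class 1 member, of 3 box C/D and 4 box H/ACA proteins, fell with PI3Kdi, beside 8.19% of all mRNA. Nop56 (Entrez 67134, chromosome 2 of GRCm38 from 130274367 to 130279313), a core protein of box C/D snoRNP, was at 96.5, 90.95 and 94.1 FPKM in naïve, 451, 383 and 417 FPKM in TCR activated and 335, 344 and 336 FPKM in PI3Kdi cells. PI3Kdi libraries lay below the TCR activated ones with little spread, at a log2 difference of -0.30 (SE 0.08, adjusted p = 0.027). Nop58, its partner in the particle, and Fbl, the methyltransferase, had log2 fold changes of -0.13 and -0.03 and overlapping groups. Nhp2, a core protein of box H/ACA snoRNP, was at 41.9, 48.6 and 44.7 FPKM in naïve, 276, 286 and 309 FPKM in TCR activated and 221, 216 and 225 FPKM in PI3Kdi cells. No library of 1 group reached the next group, and PI3Kdi gave a log2 difference of -0.39 (SE 0.08, adjusted p = 0.0069). Dkc1, which encodes the pseudouridine synthase dyskerin, was at 37.7, 37.2 and 37.2 FPKM in naïve, 137, 152 and 170.1 FPKM in TCR activated and 137, 138 and 147 FPKM in PI3Kdi cells. TCR replicate 1 lay just below the PI3Kdi libraries and TCR replicates 2 and 3 above them, and the log2 fold change was -0.12 (adjusted p = 0.4). Gar1 and Nop10 had log2 fold changes of -0.20 and -0.09 that did not pass.

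Among the 14 small subunit factors, 5 fell with PI3Kdi, beside 8.19% of all mRNA, and the median log2 fold change was -0.21. Rrp9 (Entrez 27966, chromosome 9 of GRCm38 from 106477309 to 106485415), a protein of the U3 snoRNP that takes part in the first cuts of the precursor, had the largest fitted fall of the 48 members. Its FPKM were 36.99, 35.6 and 37.1 in naïve, 139, 157 and 166 in TCR activated and 102, 104 and 98.1 in PI3Kdi cells. The PI3Kdi libraries lay well below the TCR activated ones and above the naïve ones, with a log2 difference of -0.60 (SE 0.08, adjusted p = 0.00063), a fold of 0.661. Rrp9 passed the adjusted p under every alternative run, and it passed a fold limit of 1.5. Bysl, which acts late in maturation of the small subunit, was at 11.9, 11.8 and 14.3 FPKM in naïve, 47.3, 49.6 and 55.97 FPKM in TCR activated and 38.6, 37.9 and 41.3 FPKM in PI3Kdi cells. Its PI3Kdi libraries did not reach the TCR activated ones, at a log2 difference of -0.37 (SE 0.10, adjusted p = 0.027).

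Wdr43, a part of the processome that binds the precursor while it is transcribed, had the highest mean FPKM of the small subunit factors over the 9 libraries of the first table. It was at 48.3, 50.6 and 49.3 FPKM in naïve, 143, 148 and 154 FPKM in TCR activated and 119.5, 122 and 131 FPKM in PI3Kdi cells. The groups were separate, with a log2 difference of -0.25 (SE 0.07, adjusted p = 0.032) for PI3Kdi. Heatr1 and Utp20, large scaffold proteins of the same processome, had fitted values above 0. Heatr1 was at 25.2, 22.2 and 22.1 FPKM in naïve, 54.1, 67.1 and 72.4 FPKM in TCR activated and 63.9, 65.1 and 70.3 FPKM in PI3Kdi cells. Utp20 was at 15.8, 13.6 and 14.01 FPKM in naïve, 33.4, 41.1 and 45.4 FPKM in TCR activated and 39.1, 41.99 and 42.5 FPKM in PI3Kdi cells. For both, TCR replicate 1 lay below the PI3Kdi libraries and the log2 fold change was 0.05 (adjusted p = 0.79), and without that library it was -0.07. Nob1, the nuclease that makes the mature end of the small subunit rRNA, fell by 0.41 on the log2 scale and Nop14 by 0.28. The fall of Nop14 was close to the limit of the adjusted p and did not pass it with a pseudocount of 0.01 or a minimum mean FPKM of 1. The fitted values of Noc4l, Wdr75, Ddx10, Dhx37, Rrp12, Ltv1 and Tsr1 did not pass the adjusted p and ranged from -0.26 for Ltv1 to -0.06 for Ddx10.

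All 14 large subunit factors had negative fitted values, though Rrs1 was at 0.08 without replicate 3. Of the 14, 5 fell, beside 8.19% of all mRNA, with a median log2 fold change of -0.20. Nop16 was at 14.4, 15.4 and 15.3 FPKM in naïve, 100.1, 115 and 121 FPKM in TCR activated and 83.9, 78.99 and 85.5 FPKM in PI3Kdi cells. The groups did not overlap, at a log2 difference of -0.43 (SE 0.09, adjusted p = 0.0061) for PI3Kdi. Noc2l, which travels with the early large subunit particle, was at 76.3, 77.6 and 87.5 FPKM in naïve, 257, 230.3 and 249.6 FPKM in TCR activated and 180.2, 193 and 202 FPKM in PI3Kdi cells. The activated groups were separate, with a log2 difference of -0.36 (SE 0.08, adjusted p = 0.015). Rrp1b was at 11.7, 11.3 and 13.4 FPKM in naïve, 56.3, 59.4 and 53.5 FPKM in TCR activated and 50.4, 53.8 and 51.1 FPKM in PI3Kdi cells. PI3Kdi replicate 2 lay above TCR replicate 3, and the log2 fold change of -0.12 did not pass (adjusted p = 0.38). The other falls past the adjusted p were those of Nle1 by 0.37, Ebna1bp2 by 0.36 and Nop2, an rRNA methyltransferase, by 0.29 on the log2 scale. Of the 9 members given here library by library that passed the adjusted p, the 8 other than Rrp9 did not pass without replicate 2 or without replicate 3, with 2 libraries per group. Their log2 fold changes were -0.411 to -0.243 in those fits, beside -0.434 to -0.254.

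**Figure D2:**
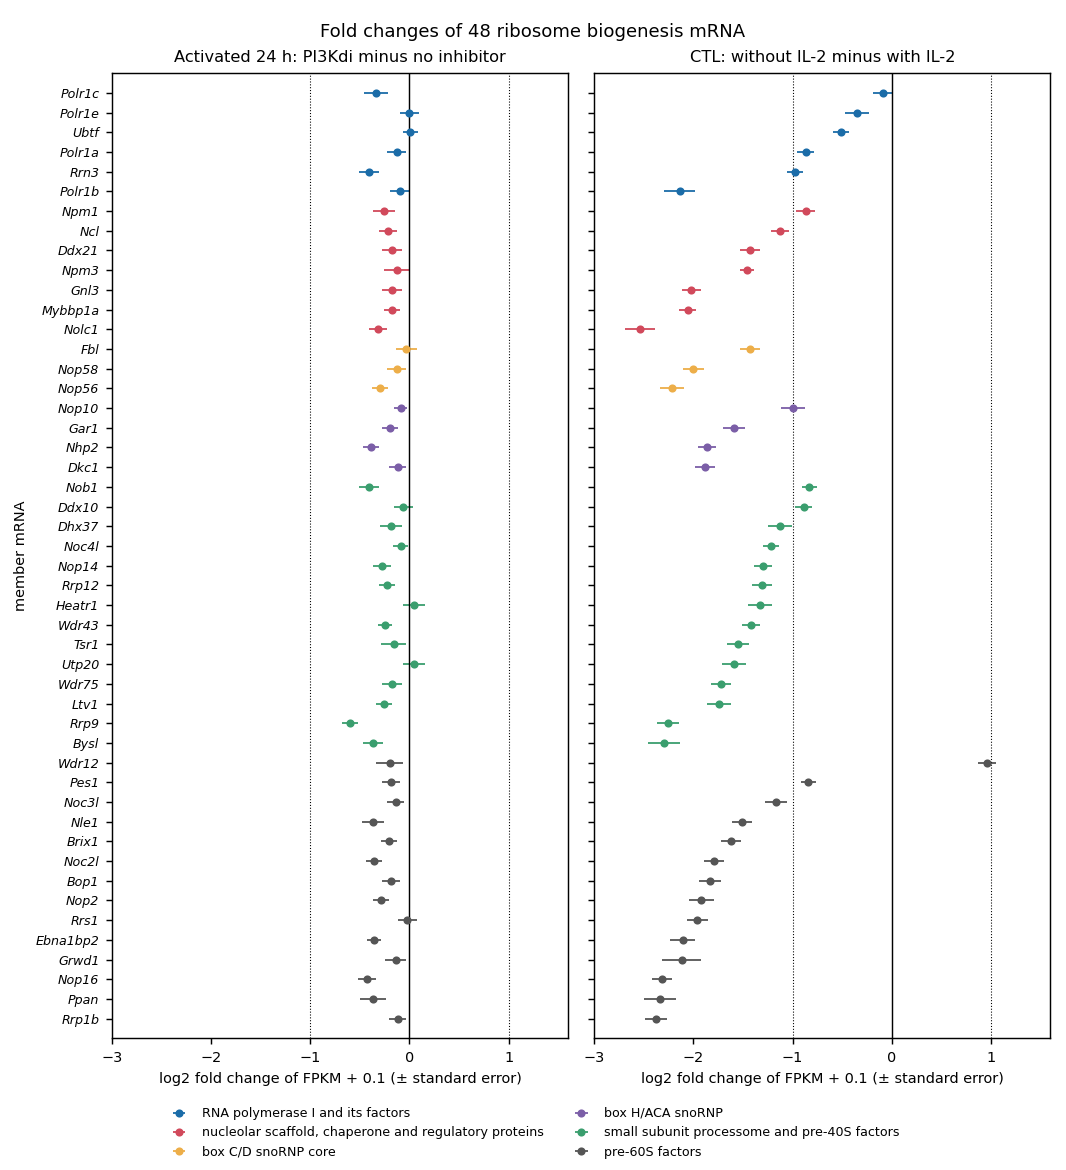
Log2 fold change of FPKM + 0.1 (x axis) with its standard error for each of the 48 members (y axis, coloured by role), for PI3Kdi against TCR activation on the left and for CTL without against with IL-2 on the right, n = 3 libraries per group; dotted lines mark 2-fold. On the left the points lie between -0.60 for Rrp9 and 0.05 for Utp20, and on the right between -2.54 for Nolc1 and 0.96 for Wdr12.

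Withdrawal of IL-2 from CTL lowered the module. Of the 48 members, 38 were called lower at 2-fold in limma, beside 13.9% of all mRNA, and 0 were called higher, beside 14.3% of all mRNA. By the adjusted p alone 46 fell, beside 36.6% of all mRNA, and 1, Wdr12, rose, beside 35.2% of all mRNA, and the same numbers passed an unadjusted p under 0.05, beside 37.7% and 36.3% of all mRNA. The median log2 fold change was -1.57 over the members, a fold of 0.337, and 0.00 over all mRNA. In 46 members every library without IL-2 lay below every library with IL-2, which held for 38.5% of all mRNA. The 38 members called lower, of all 48, held 12 of the 14 that fell with PI3Kdi (12 of the 38), without Rrn3 and Nob1.

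The replicates of CTL also differed. Replicate 3 without IL-2 was the lowest of its group for 41 of 48 members and held the lowest value for 39.7% of all mRNA. Replicate 1 with IL-2 was the lowest of its group for 34 members and for 39.3% of all mRNA. Between libraries of the same number the member medians were -1.37, -1.54 and -1.76 in log2, with 46 members lower in all 3 pairs and 42.5% of all mRNA.

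The genes of RNA polymerase I had the smallest median fall of the roles, with a median log2 fold change of -0.69. Of the 6, 1 was called lower at 2-fold, beside 13.9% of all mRNA. Polr1b was at 23.98, 24.6 and 25.4 FPKM with IL-2 and 5.71, 6.91 and 4.28 FPKM without. All libraries without IL-2 were far below those with IL-2, at a log2 difference of -2.14 (SE 0.16, adjusted p = 2.4e-06). Rrn3 was at 29.7, 29.5 and 31.8 FPKM with IL-2 and 15.5, 16.1 and 14.5 FPKM without, 2 separate groups with a log2 difference of -0.98 (SE 0.08, adjusted p = 6.0e-06), just short of 2-fold. Ubtf was at 55.3, 62.1 and 62.5 FPKM with IL-2 and 43.8, 42.7 and 40.1 FPKM without. Every library without IL-2 was below every library with it, and the mRNA fell by 0.51 on the log2 scale (standard error 0.08, adjusted p = 0.00035). Polr1e was at 9.42, 9.73 and 8.45 FPKM with IL-2 and 7.65, 7.76 and 6.27 FPKM without. These groups lay close together without overlap, with a log2 difference of -0.35 (SE 0.12, adjusted p = 0.025) that did not pass with median scaling, without replicate 1, without replicate 2, or without the third library of CTL deprived of IL-2, at -0.374 to -0.25. Polr1a fell by 0.87 on the log2 scale. Polr1c was the 1 member of the module that passed neither rule, at 32.8, 28.7 and 33.1 FPKM with IL-2 and 31.1, 30.9 and 26.7 FPKM without. Its groups overlapped, at a log2 fold change of -0.09 (adjusted p = 0.4).

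Nucleolar proteins fell in 7 of 7 cases, beside 36.6% of all mRNA, with a median log2 fold change of -1.46. Of these, 6 were called lower at 2-fold, beside 13.9% of all mRNA. Nolc1 had the largest fitted fall of the module, from 85.6, 108 and 119.8 FPKM with IL-2 to 18.9, 20.4 and 14.4 FPKM without. The lowest library with IL-2 was far above the highest without, at a log2 difference of -2.54 (SE 0.15, adjusted p = 9.1e-07), a fold of 0.172. Npm1 was at 971, 1003 and 1153 FPKM with IL-2 and 560.0, 542 and 611 FPKM without, the smallest fall among the nucleolar proteins. Its groups were separate, with a log2 difference of -0.87 (SE 0.10, adjusted p = 3.7e-05). Ncl fell by 1.13, Ddx21, an RNA helicase, by 1.43, Npm3 by 1.46, Gnl3, which encodes nucleostemin, by 2.02 and Mybbp1a by 2.06 on the log2 scale.

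All 3 box C/D and all 4 box H/ACA members were called lower without IL-2, beside 13.9% of all mRNA. Their medians were -2.0 and -1.72. Nop56 was at 167, 181 and 199.8 FPKM with IL-2 and 44.96, 40.98 and 32.4 FPKM without. The libraries without IL-2 were all far below those with IL-2, at a log2 difference of -2.22 (SE 0.12, adjusted p = 6.2e-07). Dkc1 was at 73.1, 76.2 and 82.8 FPKM with IL-2 and 22.4, 22.4 and 18.1 FPKM without. The groups were separate, at a log2 difference of -1.88 (SE 0.10, adjusted p = 5.4e-07). Nhp2 was at 115, 139.6 and 125 FPKM with IL-2 and 35.4, 36.5 and 32.8 FPKM without. The spread within each group was small beside the distance between them, at a log2 difference of -1.86 (SE 0.09, adjusted p = 3.4e-07). Nop58 fell by 2.00, Gar1 by 1.59, Fbl by 1.43 and Nop10 by 1.00 on the log2 scale. The call of Nop10 thus lay at the limit of 2-fold.

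Small subunit factors were called lower in 12 of 14 cases without IL-2, beside 13.9% of all mRNA. All 14 fell by the adjusted p, beside 36.6% of all mRNA, with a median log2 fold change of -1.37. Bysl was at 19.9, 21.9 and 24.1 FPKM with IL-2 and 4.66, 5.21 and 3.41 FPKM without. The groups were separate, at a log2 difference of -2.30 (SE 0.16, adjusted p = 1.6e-06), the largest fitted fall of the small subunit factors. Rrp9 was at 52.4, 62.8 and 59.9 FPKM with IL-2 and 13.2, 12.6 and 10.7 FPKM without. Its libraries without IL-2 were all below those with IL-2, at a log2 difference of -2.26 (SE 0.11, adjusted p = 3.2e-07). Wdr43 was at 76.8, 77.6 and 85.1 FPKM with IL-2 and 32.7, 29.6 and 27.1 FPKM without, with no overlap and a log2 difference of -1.42 (SE 0.09, adjusted p = 1.1e-06). Heatr1 went from 30.2, 23.9 and 26.3 FPKM to 12.02, 10.6 and 9.25 FPKM and Utp20 from 15.3, 11.9 and 12.8 FPKM to 4.56, 4.41 and 4.04 FPKM. Both were separate between groups, with log2 fold changes of -1.33 and -1.59, whereas with PI3Kdi both had fitted values above 0. Nob1 and the helicase Ddx10 fell by 0.83 and 0.89 on the log2 scale, short of 2-fold.

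Large subunit factors were called lower in 12 of 14 cases, beside 13.9% of all mRNA, with a median log2 fold change of -1.87. Rrp1b was at 32.5, 34.95 and 40.4 FPKM with IL-2 and 6.91, 7.36 and 6.12 FPKM without. The groups lay far apart, at a log2 difference of -2.38 (SE 0.11, adjusted p = 3.0e-07), the largest fall of the large subunit factors. Nop16 was at 31.9, 35.4 and 39.2 FPKM with IL-2 and 6.96, 6.92 and 7.05 FPKM without. The libraries without IL-2 were nearly equal and below those with IL-2, at a log2 difference of -2.32 (SE 0.10, adjusted p = 2.0e-07). Noc2l was at 128, 161 and 160.3 FPKM with IL-2 and 43.9, 46.00 and 39.7 FPKM without. The groups were separate, at a log2 difference of -1.79 (SE 0.10, adjusted p = 8.2e-07). The other large subunit factors called lower were Ppan, Grwd1, Ebna1bp2, Rrs1, Nop2, Bop1, Brix1, Nle1 and Noc3l, from -2.34 for Ppan to -1.17 for Noc3l.

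Wdr12 went the other way. Its product forms a complex with those of Pes1 and Bop1 that is needed for the large subunit rRNA. Wdr12 (Entrez 57750, chromosome 1 of GRCm38 from 60071361 to 60098500) was at 9.79, 9.76 and 7.84 FPKM in naïve, 42.4, 60.5 and 62.3 FPKM in TCR activated and 45.8, 46.8 and 49.4 FPKM in PI3Kdi cells. The activated groups overlapped, with TCR replicate 1 the lowest library, at a log2 fold change of -0.20 for PI3Kdi (adjusted p = 0.39). Without that library it was -0.37 and passed the adjusted p. In CTL it was at 17.6, 14.8 and 16.5 FPKM with IL-2 and 32.4, 31.2 and 31.5 FPKM without. All libraries without IL-2 were above all libraries with IL-2, at a log2 difference of 0.96 (SE 0.09, adjusted p = 1.0e-05), a fold of 1.94 that passed 2-fold with median scaling. Its partner Bop1 was at 67.7, 82.4 and 77.8 FPKM with IL-2 and 23.1, 22.6 and 18.3 FPKM without, and Pes1 at 53.2, 59.5 and 59.4 FPKM with IL-2 and 33.1, 32.7 and 30.2 FPKM without. Both partners fell, by 1.83 and 0.84 on the log2 scale. The exons of Wdr12 share 61 bases with Carf on the opposite strand.

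**Figure D3:**
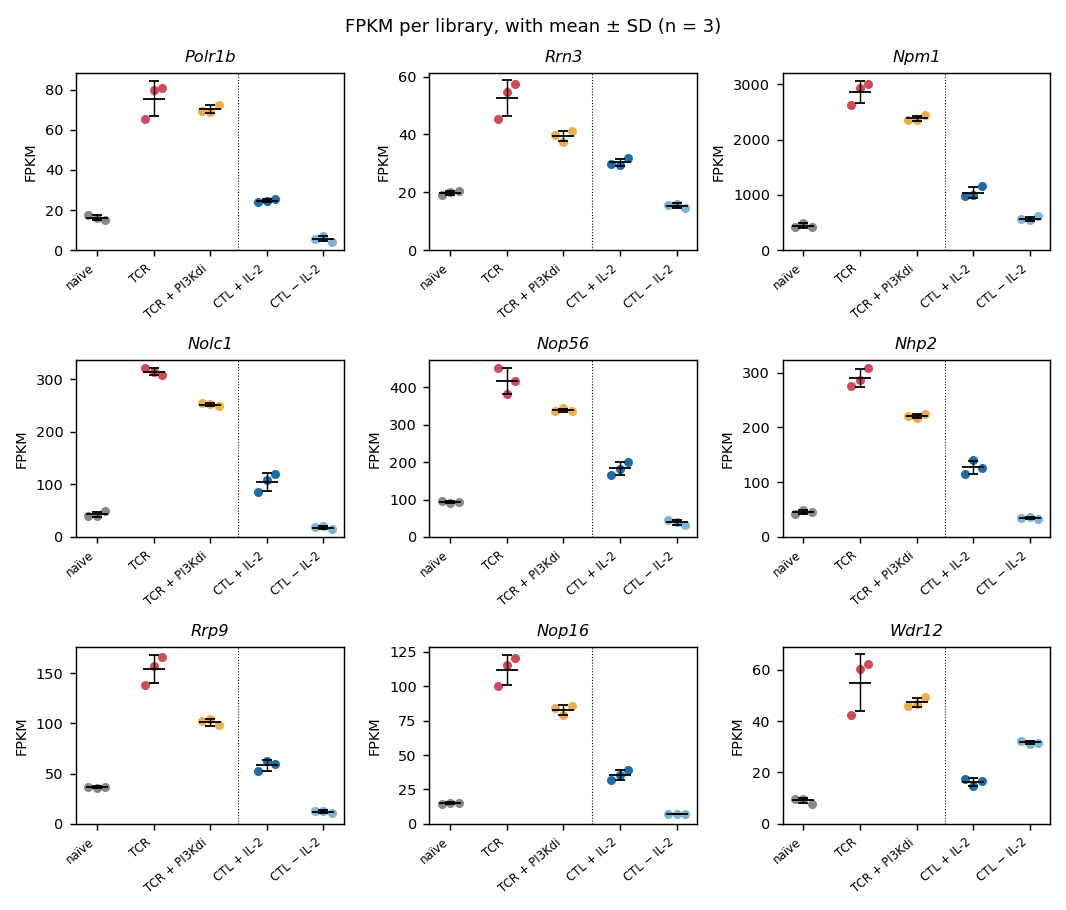
FPKM (y axis) of 9 members in each of the 15 libraries, with the mean and SD of 3 libraries per group (x axis); the dotted line separates the 2 tables, which were normalized separately. In the first table all 9 are lowest in naïve cells, and in CTL 8 of the 9 are lower without IL-2 and Wdr12 is higher without IL-2 (31.2 to 32.4 FPKM) than with it (14.8 to 17.6 FPKM).

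Set side by side, the median log2 fold changes for PI3Kdi and for IL-2 withdrawal were -0.12 and -0.69 for RNA polymerase I, -0.18 and -1.46 for nucleolar proteins, -0.13 and -2.0 for box C/D proteins, -0.16 and -1.72 for box H/ACA proteins, -0.21 and -1.37 for small subunit factors and -0.20 and -1.87 for large subunit factors. These contrasts come from different cells and cultures, and the difference between them was not tested. They share no library, and across the 48 members their log2 fold changes had a Pearson r of 0.24 and a Spearman rho of 0.23, beside 0.39 and 0.44 across 10637 mRNA of both tables. For TCR activation against IL-2 withdrawal r was -0.36 and rho -0.49 across the members, beside -0.64 and -0.69 across these mRNA. Genes are not independent replicates, and these values are a description.

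Other ribosome biogenesis genes, 93 of a list of 94, were found in both tables, and Nop9 was in neither. On TCR activation 56 were called higher and 0 lower, beside 25.0% and 23.7% of all mRNA. At an unadjusted p under 0.05, 4 were lower, beside 4545 of 11262 mRNA. The median log2 fold change was 1.14, beside 0.01 over all mRNA. Cirh1a (Utp4) and Pno1, factors of the small subunit, and Mrto4, a factor of the large subunit, rose most, by 2.60, 2.54 and 2.48. In PI3Kdi against naïve cells 45 were called higher and 0 lower, beside 23.6% and 21.3% of all mRNA. At an unadjusted p under 0.05, 4 were lower, beside 4476 of 11262 mRNA. The median was 0.98, beside 0.00 over all mRNA, and Pno1, Cirh1a and Tbl3 rose most, by 2.26, 2.21 and 2.20. With PI3Kdi against TCR activation 0 were called in either direction in limma, beside 3.04% of all mRNA higher and 2.1% lower. By the adjusted p alone 13 fell and 0 rose, beside 8.19% and 9.35% of all mRNA. At an unadjusted p under 0.05, 33 were lower and 0 higher, beside 15.4% and 16.1% of all mRNA. The median was -0.17, beside -0.01 over all mRNA. Without IL-2, 41 were called lower and 1 higher, beside 13.9% and 14.3% of all mRNA. The median was -0.93, beside 0.00 over all mRNA. Mrto4 fell from 96.7, 89.00 and 92.4 FPKM to 21.1, 18.9 and 17.3 FPKM, with a log2 difference of -2.28 (SE 0.09, adjusted p = 1.7e-07). Rrp15 and Rpf2, also large subunit factors, fell by 2.06 and 1.95 on the log2 scale. Gltscr2 (Nop53), a large subunit factor, rose from 133, 174 and 151 FPKM to 288, 309 and 334 FPKM, with a log2 difference of 1.03 (SE 0.11, adjusted p = 2.3e-05). As for Wdr12, its libraries without IL-2 were all above those with IL-2.

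In that list the 9 further genes of RNA polymerase I and its factors were called higher on TCR activation in 2 cases, Cd3eap and Taf1d, beside 25.0% of all mRNA. With PI3Kdi 1 of the 9 fell by the adjusted p alone, beside 8.19% of all mRNA, and 0 were called at 2-fold. It was Taf1d, a subunit of the promoter selectivity factor, at 102, 94.5 and 105 FPKM in TCR activated and 64.3, 73.9 and 68.5 FPKM in PI3Kdi cells. These groups did not overlap, at a log2 difference of -0.54 (SE 0.09, adjusted p = 0.0017). Without IL-2 1 of the 9 was called lower, beside 13.9% of all mRNA, the polymerase subunit Cd3eap, from 20.7, 24.6 and 25.1 FPKM to 8.25, 9.42 and 8.03 FPKM. Taf1d was at 38.95, 30.9 and 41.8 FPKM with IL-2 and 36.1, 33.9 and 37.9 FPKM without, with overlapping groups. The median of the 9 was -0.02 for PI3Kdi and 0.01 for IL-2 withdrawal.

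MYC is known as an activator of many ribosome biogenesis genes, as a dimer with MAX, and MXD proteins compete for MAX. In a list of 10 mRNA of this network, Myc was at 61.9, 62.4 and 87.5 FPKM in naïve, 398, 293 and 359 FPKM in TCR activated and 286, 309 and 314 FPKM in PI3Kdi cells. The activated groups overlapped, at a log2 fold change of -0.20 (adjusted p = 0.39) for PI3Kdi, and both were above naïve cells. In CTL, Myc was at 158, 248 and 238 FPKM with IL-2 and 43.5, 44.8 and 38.8 FPKM without. No library without IL-2 reached the lowest with IL-2, at a log2 difference of -2.31 (SE 0.16, adjusted p = 1.6e-06). Mycn, a relative of Myc, was at 39.6, 48.8 and 49.00 FPKM with IL-2 and 1.67, 1.36 and 1.22 FPKM without. It was under 1 FPKM in all libraries of the first table, and in CTL it had a log2 difference of -4.92 (SE 0.14, adjusted p = 6.1e-08). Mxd4, an antagonist, was at 36.6, 26.1 and 34.7 FPKM in naïve, 0.48, 0.29 and 0.45 FPKM in TCR activated and 1.48, 1.32 and 1.58 FPKM in PI3Kdi cells. In CTL it was at 19.1, 19.2 and 7.52 FPKM with IL-2 and 87.2, 87.01 and 87.5 FPKM without. Mxd4 was low in all activated libraries of the first table, and its log2 fold change was -6.01 on TCR activation, 1.64 with PI3Kdi and 2.63 without IL-2, each past the adjusted p. Of the 10 mRNA, 3 were called higher and 1 lower on TCR activation, beside 25.0% and 23.7% of all mRNA. With PI3Kdi against TCR activation 1 was called higher and 1 lower, beside 3.04% and 2.1%, and the lower one was Mycn, under 1 FPKM. In PI3Kdi against naïve cells 3 were called higher and 2 lower, beside 23.6% and 21.3%. Without IL-2, 1 was called higher and 2 lower, beside 14.3% and 13.9%. The part of this network in the module's changes was not tested.

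Some known readouts of each input moved in the same libraries, and others did not pass the adjusted p. Of 5 mRNA that p110δ signals are known to lower (Klf2, S1pr1, Ccr7, Il7r and Tcf7), 2 were called higher with PI3Kdi, and 0 lower in limma, with 0 at an unadjusted p under 0.05. Over all mRNA 3.04% were called higher with PI3Kdi and 2.1% lower, and 15.4% were lower at the unadjusted p. Klf2 was at 0.39, 0.38 and 1.46 FPKM in TCR activated and 9.33, 14.3 and 19.5 FPKM in PI3Kdi cells, with a log2 difference of 4.28 (SE 0.40, adjusted p = 5.9e-05). Il7r rose by 1.74 on the log2 scale. For both mRNA every PI3Kdi library was above every TCR activated one, in the libraries in which no member of the module was called at 2-fold. Ccr7 rose by 0.59 on the log2 scale (adjusted p = 0.0053), short of 2-fold. S1pr1 and Tcf7 had overlapping groups, with log2 fold changes of 0.01 and 0.41 that did not pass (adjusted p = 0.98 and 0.085). All 5 mRNA of this list were called higher without IL-2, beside 14.3% of all mRNA. On TCR activation 4 were called lower and in PI3Kdi against naïve cells 4, beside 23.7% and 21.3% of all mRNA. Of 7 mRNA that IL-2 is known to raise or sustain (Cish, Socs1, Socs2, Socs3, Il2ra, Pim1 and Bcl2), 5 were called lower without IL-2. This call held for 13.9% of all mRNA. Cish was at 199, 242 and 218 FPKM with IL-2 and 20.7, 21.5 and 16.3 FPKM without, with a log2 difference of -3.50 (SE 0.12, adjusted p = 7.9e-08). With PI3Kdi 2 of the 7 were called higher, Socs2 and Bcl2, and 0 lower, 2 at an unadjusted p under 0.05. The shares of all mRNA were those given above for PI3Kdi. On TCR activation and in PI3Kdi against naïve cells 4 of the 7 were called higher, beside 25.0% and 23.6% of all mRNA.

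Proliferation mRNA are given beside the module. All 9 of a list (Mki67, Top2a, Cdk1, Ccnb1, Ccna2, Pcna, Mcm2, Mcm3 and Mcm5) were called higher on TCR activation and in PI3Kdi against naïve cells. These calls held for 25.0% and 23.6% of all mRNA. With PI3Kdi against TCR activation 0 were called in limma, 1 passed the adjusted p in each direction, and 1 was higher and 4 lower at an unadjusted p under 0.05. Over all mRNA 3.04% were called higher and 2.1% lower, 9.35% and 8.19% passed the adjusted p, and 16.1% and 15.4% the unadjusted p. The sums below are of the 9 listed mRNA. Their summed FPKM was 171, 170 and 165 in naïve, 1636, 1812 and 1679 in TCR activated and 1745, 1598 and 1613 in PI3Kdi cells. Without IL-2, 3 were called lower, beside 13.9% of all mRNA, the replication helicase subunits Mcm2, Mcm3 and Mcm5. By the adjusted p alone 8 of the 9 fell, beside 36.6% of all mRNA. The sum was 1283, 1254 and 1337 FPKM with IL-2 and 864, 773 and 647 FPKM without. Pcna had the highest mean of the list in each group but CTL without IL-2, where Top2a was higher. These CTL libraries thus moved in the same direction for proliferation and for the module, and the part of proliferation was not tested.

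Some mRNA in the lists of naïve and effector T cell mRNA differed between the groups. The 4 naïve T cell mRNA, all in both tables, of which Ccr7, Tcf7 and Il7r are also among the p110δ readouts, had a summed FPKM of 291, 283 and 323 in TCR activated, 364, 435 and 480 in PI3Kdi and 1241, 1330 and 1577 in naïve cells. In CTL the sum was 146, 154 and 109 with IL-2 and 1191, 1125 and 1348 without, with Tcf7 the most abundant in the list by the mean over each table. With PI3Kdi 1 of the 4 was called higher, and without IL-2 all 4, beside 3.04% and 14.3% of all mRNA. On TCR activation and in PI3Kdi against naïve cells 3 of the 4 were called lower, beside 23.7% and 21.3% of all mRNA. The 5 effector mRNA had a sum of 44.5, 45.2 and 48.5 FPKM in naïve, 6759, 5812 and 5393 FPKM in TCR activated and 1204, 961 and 989 FPKM in PI3Kdi cells. In CTL it was 9593, 11296 and 12544 FPKM with IL-2 and 654, 664 and 397 FPKM without. Of these 5, 3 were called lower with PI3Kdi and 4 lower without IL-2, beside 2.1% and 13.9% of all mRNA. The remaining 1 without IL-2, Tbx21, was higher by the adjusted p, short of 2-fold. In each comparison with naïve cells 4 were called higher and 1 lower. Over all mRNA these shares were 25.0% and 23.7% on TCR activation, and 23.6% and 21.3% in PI3Kdi against naïve cells. By group mean the most abundant of the 5 was Prf1 in naïve cells, Il2ra in PI3Kdi cells and Gzmb in the other groups.

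Markers of other cells were also read in the first table. Of 6 dendritic cell mRNA 3 were in it, and Flt3, Xcr1 and Itgax were not. All 3 were called lower with PI3Kdi, beside 2.1% of all mRNA. The sum of the 3 was 20.4, 11.4 and 27.4 FPKM in TCR activated and 2.61, 4.38 and 4.45 FPKM in PI3Kdi cells, beside 7.23, 28.2 and 14.3 FPKM in naïve cells, with Cd74 the most abundant. Of 5 B cell mRNA 3 were in it, without Pax5 and Ighm, and 1 (Ms4a1), beside 2.1% of all mRNA, was called lower with PI3Kdi. Their sum was 4.05, 3.81 and 5.77 FPKM in TCR activated, 3.06, 3.88 and 4.1 FPKM in PI3Kdi and 20.6, 25.4 and 21.6 FPKM in naïve cells, with Cd79b the most abundant. Of 6 myeloid mRNA 2 were in it, without Lyz2, Csf1r, Adgre1 and Cd14, at a sum of 46.8, 58.4 and 52.9 FPKM in naïve, 55.8, 38.2 and 37.6 FPKM in TCR activated and 48.1, 42.2 and 38.8 FPKM in PI3Kdi cells, almost all of it Cst3. Of 3 NK cell mRNA only Gzma, which T cells also express, was in it, at 4.56, 4.85 and 3.07 FPKM in naïve, 3.67, 1.25 and 1.51 FPKM in TCR activated and 1.9, 1.42 and 1.77 FPKM in PI3Kdi cells. Of 3 mRNA of CD4+ T cells, Cd4 was not in the table, and the other 2 summed to at most 1.48 FPKM in each library. None of the 5 erythroid mRNA was in either table. The part of these cells in the differences of the module was not tested.

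In CTL, 1 of 5 B cell mRNA was in the table, Cd79b, at 6.3, 3.96 and 2.74 FPKM with IL-2 and 20.6, 15.7 and 10.8 FPKM without. The 2 myeloid mRNA found summed to 67.4, 68.5 and 61.2 FPKM with IL-2 and 102, 100 and 90.2 FPKM without, led by Cst3, and Lyz2, Csf1r, Adgre1 and Cd14 were not in the table. The 3 dendritic cell mRNA found summed to 8.06, 9.38 and 3.72 FPKM with IL-2 and 14.4, 19.5 and 14.1 FPKM without, led by Cd74, and Flt3, Zbtb46 and Xcr1 were not in the table. In each of these 3 lists 1 mRNA was called higher without IL-2, beside 14.3% of all mRNA. The 2 NK cell mRNA found, led by Gzma and without Ncr1, summed to 5062, 4574 and 5211 FPKM with IL-2 and 1896, 1877 and 1808 FPKM without. Of these 2, 1 was called lower, beside 13.9% of all mRNA. The 2 mRNA of CD4+ T cells found, led by Zbtb7b and without Foxp3, summed to 17, 21.4 and 16.8 FPKM with IL-2 and 30.2, 29.4 and 25.6 FPKM without. Of these 2, 1, Cd4, was called higher, beside 14.3% of all mRNA. Stress mRNA, 6 of 7 in the first table and 5 of 7 in the second, without Hspa1a in either and Hspa1b in the second, summed to 141, 301 and 103 FPKM in naïve, 86.3, 59.9 and 76.6 FPKM in TCR activated, 66.5, 69.6 and 65.5 FPKM in PI3Kdi cells, 47.6, 58 and 71.2 FPKM in CTL with IL-2 and 35.3, 40.9 and 41.9 FPKM without. By group mean the most abundant was Fos in naïve cells, Egr1 in both activated groups, Jun in CTL with IL-2 and Ddit3 without. Of the stress mRNA 1 was called lower with PI3Kdi, Atf3, beside 2.1% of all mRNA. Without IL-2, 4 were called lower and 1 higher, beside 13.9% and 14.3% of all mRNA. The part of other cells and of stress in the fall of the module was not tested.

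The members lie on 18 chromosomes, and all 48 matched a RefSeq gene of GRCm38. None shares exon bases with a gene on the same strand, and 20 share some with a gene on the opposite strand. The longest shared stretches were 1240 bases for Tsr1 with Srr, 598 for Noc2l with Samd11 and 361 for Bysl with Ccnd3. Use of the strand in counting is not stated, so reads of such pairs cannot be told apart in the shared bases. Among the members, 8 hold 23 annotated snoRNA genes within their bounds. Nop56 holds 5, Nop58 holds 4, Ncl, Gnl3 and Wdr43 hold 3 each, Tsr1 and Ppan hold 2 each, and Dkc1 holds 1.

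The MYC and MAX dimer is known to bind CACGTG, which reads the same on both strands, and so do other factors. The promoter table of RefSeq, with 250 bases before to 50 bases after each gene start on GRCm38.p6, held windows for 43 of 48 members. The letters CACGTG were found in 10 of these 43 (23.3%), beside 2187 of 27025 genes of the promoter table (8.09%) and 1038 of 8404 genes of the first FPKM table (12.4%). Counted by windows of equal length, it was 10 of 52 (19.2%), 7.15% and 10.5%. The 10 genes were Rrn3, Mybbp1a, Ltv1, Utp20, Tsr1, Wdr43, Nop2, Grwd1, Pes1 and Nle1. They include Rrn3, Wdr43, Nop2 and Nle1, which fell with PI3Kdi by the adjusted p, as did 14 of all 48 members. They also include Utp20, with a fitted value above 0 that did not pass (0.05, adjusted p = 0.79). A relation of the letters to the response to PI3Kdi was not tested. A match is a description of letters and not a bound site. The stretches around the match, with CACGTG in capitals, are shown for these 5 genes, 5′ to 3′ on the strand of the gene.
Rrn3, chr16:13780472-13780501, plus strand: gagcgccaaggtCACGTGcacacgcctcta
Rrn3, chr16:13780639-13780668, plus strand: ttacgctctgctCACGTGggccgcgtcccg
Wdr43, chr17:71616220-71616249, plus strand: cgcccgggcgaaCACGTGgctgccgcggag
Nop2, chr6:125131811-125131840, plus strand: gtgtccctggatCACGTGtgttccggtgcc
Nle1, chr11:82908355-82908384, minus strand: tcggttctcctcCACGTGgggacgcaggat
Utp20, chr10:88826765-88826789, minus strand: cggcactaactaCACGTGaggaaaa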

How the data were processed

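RNA sequencing of 15 libraries was taken from 2 tables of FPKM that the authors deposited, made with STAR 2.5.2b on mm10, Subread 1.5.1, a filter on low counts and TMM in edgeR. These steps are stated for the first table and were assumed for the CTL table. Blank cells of the first table were read as 0. In R 4.3.3 with limma 3.58.1, log2(FPKM + 0.1) was fitted with an intensity trend, the 9 libraries in 1 fit and the 6 CTL libraries in another. All genes of a table entered the Benjamini-Hochberg adjustment. The fit was tested on simulated data.

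Libraries were grouped by title and replicate number. For replicates 2 and 3 of CTL with IL-2 the treatment label gives a different interleukin, and for all CTL it gives replicate 1; the titles were followed. Deviations from group means, correlated across genes, had r of 0.27, 0.20 and 0.51 between same-numbered TCR activated and PI3Kdi libraries and 0.12, 0.17 and 0.26 in CTL, beside means of -0.16 and -0.09 for other numbers. Between naïve and either activated group r was -0.18 to 0.23. The numbers were taken to pair the libraries, by the cell pool of each replicate in the first table and by these correlations in CTL. The main fits, which gave the standard errors and p-values of the Results, held the group only and left this pairing out. It was used in an alternative, the replicate block.

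Members and lists were chosen with earlier results of these data known. Some mRNA of the marker and readout lists are not reported here and were left out of the counts and sums of those lists. Values per library are given, in each role, for the member with the highest mean FPKM over the first table and those with the largest falls for PI3Kdi and for IL-2 withdrawal, and for members of opposite sign; others named (Polr1c, Bop1, Pes1 and those past a threshold) were chosen after their values were seen. Depth was estimated by a rule set after a look at the data, and another estimate differed. Alternatives were a pseudocount of 1 or 0.01, median scaling, a minimum mean FPKM of 1, the replicate block, no intensity trend, only the groups compared, leaving out each replicate and a fold limit of 1.5. Raw counts were not used here. Python 3.11.15, pandas 2.3.3, numpy 2.4.6 and matplotlib 3.10.9 were used.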

Additional observations from a re-analysis of the deposited data

How the results depend on the processing

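Across the 11 alternatives, all 18 members given by library kept their call and direction for PI3Kdi against TCR activation with a pseudocount of 1 or 0.01, a minimum mean FPKM of 1, the replicate block and only the groups compared. The replicate block (paired by number) gave 46 members called higher on TCR activation, 14 past the adjusted p for PI3Kdi and 38 called lower without IL-2, and it changed no call at 2-fold among the members and the listed mRNA. By the adjusted p alone it changed no member, and for PI3Kdi against TCR activation Utp23 and Nol10 of the other ribosome biogenesis genes no longer passed, nor did Cish and Mlx, while Tcf7 did.

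For PI3Kdi against TCR activation, the 342 mRNA called higher and 237 called lower became 170 and 141 with a pseudocount of 1, 687 and 433 with a fold limit of 1.5, and 197 to 374 and 126 to 245 when a replicate or TCR replicate 1 was left out. With a fold limit of 1.5, 1 member was called lower. The 14 members that fell by the adjusted p became 7 without an intensity trend, 6, 1 and 2 without replicate 1, 2 or 3, where the fits have fewer libraries, and 24 without TCR replicate 1. They became 13, without Nop14, with a pseudocount of 0.01 or a minimum mean FPKM of 1, and 16 with only the groups compared, 13 of them among the 14 and without Nle1. Nop14 also did not pass without an intensity trend or in any fit with libraries left out. The fitted values of 4 members turned negative without replicate 1 or TCR replicate 1, and Fbl turned to 0.01 without replicate 2 and to 0.00 without replicate 3, and Rrs1 to 0.08 without replicate 3. In CTL Polr1c turned to 0.02 without replicate 3. The lowest and highest values when leaving out libraries were -0.063 and 0.039 for Ubtf, -0.069 and 0.129 for Utp20, -0.070 and 0.10 for Heatr1 and -0.117 and 0.087 for Polr1e, which was also at -0.003 with median scaling. None of these 4 passed the adjusted p in any setting.

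The member median was 1.79 to 1.96 for TCR activation when libraries were left out. For PI3Kdi against naïve cells it was 1.55 with a pseudocount of 1 and 1.67 with median scaling. Without IL-2, median scaling and a fold limit of 1.5 each gave 1 member called higher. Over all mRNA, 1605 called higher became 1053 with a pseudocount of 1 and 2824 with a fold limit of 1.5, and 1561 called lower became 2833 with that limit. The cause was not tested, except that a lower limit admits more mRNA by construction. Leaving out TCR replicate 1, or replicate 3 of CTL without IL-2, alone was chosen after seeing the data.

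Groups of 3 limit the precision, and FPKM give no absolute amounts per cell. Depth is not settled, so no detection limit was used. Median scaling moved the median of all mRNA by at most 0.08. Counting by strand is unknown, and snoRNA in introns of members were not measured here.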
